A study of Mus musculus with 16 samples.

Results

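The genes described here are the 8 mouse genes named St6gal or St3gal (St6gal1, St6gal2 and St3gal1 to St3gal6), which encode the sialyltransferases that act on galactose. They were taken by gene name from the count table, which lists 40481 genes, and all 8 were among the 14949 genes tested. They were chosen with the adropin result in view, because St6gal2 ranked 8 by unadjusted p among the genes tested. Their adropin and saline values are therefore given as a description, without a test.

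Sialic acid is a negatively charged sugar that caps the ends of many glycans on membrane proteins and lipids. Sialyltransferases of the Golgi take it from CMP-sialic acid, and the St6gal enzymes attach it to carbon 6 of galactose, whereas the St3gal enzymes attach it to carbon 3. In the brain, sialic acid is abundant in gangliosides, the sialylated glycolipids of neurons, and on N-glycans, and it is read by lectins of glia and immune cells.

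The mice were male C57BL/6J mice (C57BL in the labels) purchased at 18 months of age. One group of 8 received synthetic Adropin(34-76), suspended in saline with albumin, at 90 nmol/kg/d by daily intraperitoneal injection. It is the putative secreted part of a peptide made in brain and other tissues. The other 8 received the saline diluent by the same route. Injections ran for 2 weeks before behavioural testing and continued during it, for a month in all by the study's account. The sequenced mice were drawn from those tested. Mice of both groups were fasted for 6 h at completion, when the brains were collected. Total RNA of snap-frozen brain was sequenced after poly-A selection, with no brain region given in the labels, and each library is a separate mouse, named here by the pair of numbers in its label.

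Library totals ran from 35185051 to 70314050 counts in the adropin-treated mice and from 35026503 to 47245785 in the saline-treated mice. Levels are TMM CPM, counts scaled to library size with trimmed mean of M-values factors, and fold changes are given as log2 values with their standard errors (SE). All 5 markers of excitatory neurons on the list used were tested, and Camk2a, a kinase abundant in these neurons, reached 3968 ± 476 CPM in adropin-treated and 3651 ± 540 CPM in saline-treated mice (SD, n = 8 each), which fits the labelled tissue. Saline-treated mouse 8_3 stood apart, with a cerebellar marker score of 3.34 when the next saline-treated mouse was at 0.0146. The summed level of the choroid plexus markers ran from 12.6 to 2465 CPM in the saline-treated mice and from 11.3 to 73.6 CPM in the adropin-treated mice.

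St6gal2 (ENSMUSG00000024172) lies on chromosome 17 at 55445382 to 55514581 on the plus strand of GRCm38. St6gal1, the other gene of the carbon 6 pair, lies on chromosome 16 at 23224740 to 23360350, also on the plus strand. The promoter strands that follow are the 250 bases before the first annotated RefSeq start of each (GRCm38.p6), shown because these genes make the same linkage and their levels moved together across mice. Capitals mark a GC box (GGGCGG on either strand), the binding sequence of Sp-type factors. The St6gal2 stretch spans chr17:55445132-55445381 and the St6gal1 stretch spans chr16:23224490-23224739, both on the plus strand.
St6gal2: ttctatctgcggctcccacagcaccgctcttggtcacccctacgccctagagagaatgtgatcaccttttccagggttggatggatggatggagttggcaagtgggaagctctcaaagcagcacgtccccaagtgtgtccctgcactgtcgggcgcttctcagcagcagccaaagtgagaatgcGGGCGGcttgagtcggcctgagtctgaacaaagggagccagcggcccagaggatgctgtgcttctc
St6gal1: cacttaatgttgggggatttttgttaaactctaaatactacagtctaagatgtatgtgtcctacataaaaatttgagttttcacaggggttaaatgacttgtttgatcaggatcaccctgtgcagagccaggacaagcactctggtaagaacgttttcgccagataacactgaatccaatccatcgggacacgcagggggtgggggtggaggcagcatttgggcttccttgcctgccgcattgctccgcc

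RefSeq start windows of 300 bases, 250 before and 50 after the start, were found for 6 of the 8 genes, with 9 windows in all. St6gal1 had 3 windows, St6gal2, St3gal3, St3gal4 and St3gal5 had 1 each and St3gal6 had 2. The St6gal2 window had a G+C content of 59.7%, against a median of 52.7% over 32851 mouse windows, and held 13 CpG. The first St6gal1 window had 48.0% G+C and 7 CpG, and its only GC box crossed the start. The windows of St3gal3, St3gal4 and St3gal5 had the highest G+C contents of the family, from 70.0% to 74.0%. A GC box was found in 6 of the 9 windows and in 35.7% of all mouse windows. The cyclic AMP response element TGACGTCA was in 0 of the 9 windows and in 1.79% of all, the AP-1 motif TGANTCA was in 1 window (the third St6gal1 start) and in 7.81% of all, the EGR motif GCGNGGGCG was in 1 (St3gal5) and in 5.55% of all, and the TATA box TATAAA was in 0 and in 13.6% of all. Both strands were searched, and such matches describe letters in a window only.

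The order of the 8 genes in the aged brain was set by level per length, as TMM CPM per kilobase of exon over all 16 mice. St3gal5, the GM3 synthase that starts the complex gangliosides, was the highest at 57.4 ± 2.64 CPM per kb (SD, n = 16). St3gal2, which caps gangliosides and core 1 O-glycans, followed at 28.2 ± 2.85, and St3gal3, which acts on N-acetyllactosamine and gangliosides, at 20.0 ± 1.86 CPM per kb.

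The other 5 genes were far lower. St3gal4 and St3gal6, which cap N-acetyllactosamine chains, were at 5.50 ± 0.440 and 2.21 ± 0.231 CPM per kb, the latter the lowest of the family. St3gal1, the core 1 O-glycan enzyme, was at 4.60 ± 0.592, St6gal2 at 4.38 ± 0.624 and St6gal1 at 3.87 ± 0.299 CPM per kb. The pair of St6gal genes made up 6.53% ± 0.402 of the summed level per kb of the family, so that 93.5% of the family's level belonged to the St3gal genes.

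**Figure D1:**
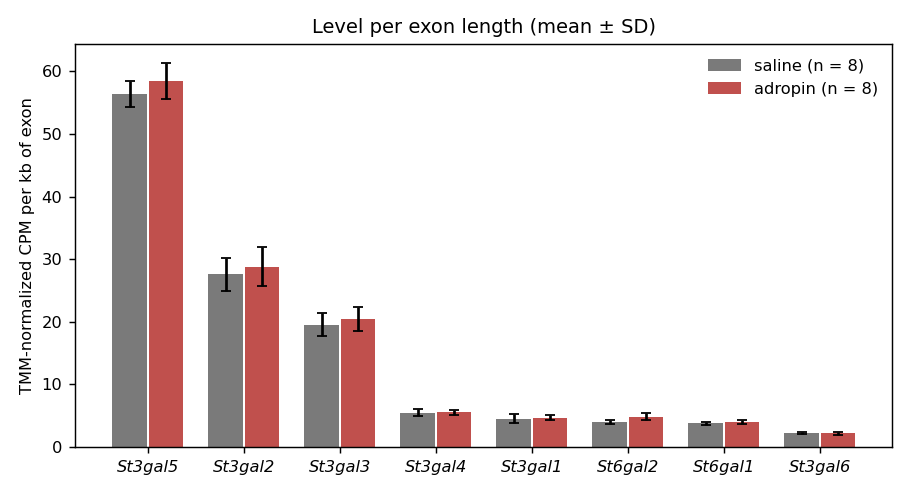
Bars give the mean TMM CPM per kilobase of exon of each gene in saline-treated (grey) and adropin-treated (red) mice, with SD, n = 8 per group. St3gal5, St3gal2 and St3gal3 stand well above the other 5 genes in both groups.

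Neighbours in this order were compared within mice by an exact sign-change test on the log2 ratio, two-sided, with p-values adjusted over the 7 pairs. The order was set from the same values, and the 2 pairs that hold St6gal2 are given without a test over all 16 mice, since its high values with adropin were used to choose the family. All of the other 5 pairs differed, and 4 of them did so in the same direction in all 16 mice, with an exact p of 3.05e-05, the smallest that 16 mice allow. This p measures agreement between mice, and cannot show an error in exon length or read counting that all mice share. Exons of St3gal4, St6gal1 and St3gal6 overlap other genes, as given further on, and the bearing of this on their place was not tested. St3gal4 was above St3gal1 in 13 of 16 mice (adjusted exact p = 0.00128). St6gal2 was above St6gal1 in 14 of 16 mice and below St3gal1 in 10 of 16 mice. Per kilobase of the longest transcript, in place of all exons, the order was the same, but the log2 difference of St6gal2 over St6gal1 was 0.33 (16 of 16 mice) against 0.17, that of St3gal4 over St3gal1 was 0.49 (16 of 16 mice) against 0.27, and that of St6gal1 over St3gal6 was 0.36 against 0.81.

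The order was also taken in each group alone. In the saline-treated mice, St6gal2 exceeded St6gal1 by 0.07 on the log2 scale and in 6 of 8 mice, again given without a test, and St3gal4 exceeded St3gal1 by 0.29 (adjusted exact p = 0.0656). In the adropin-treated mice alone, St6gal2 was the higher of the pair St6gal2 and St3gal1, by 0.03 and in 5 of 8 mice. The smallest p that 8 mice allow is 0.00781.

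St6gal2, the enzyme of the carbon 6 linkage whose expression is restricted largely to brain, had the largest difference of the family between the groups. In the saline-treated mice its level ran from 26.7 through a median of 29.7 to 32.7 CPM, and in the adropin-treated mice from 29.8 through 35.4 to 42.1 CPM. All 8 adropin-treated mice lay above the saline median and 5 lay above the highest saline-treated mouse, mouse 7_1, so the groups overlapped.

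The group means of St6gal2 were 35.5 ± 4.27 CPM with adropin and 29.2 ± 2.09 CPM with saline (SD, n = 8 each), a difference of means of 21.7%. The fitted log2 fold change was 0.28 (SE 0.0713), a fold of 1.22. The highest adropin-treated mice were 1_3 and 2_4, at 42.1 and 41.0 CPM, and the lowest was 4_3, at 29.8 CPM. Without each mouse in turn, the log2 fold change ran from 0.24 to 0.32, and it was 0.27 without saline-treated mouse 8_3.

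Across all genes tested, 223 (1.49%) had their lowest adropin-treated mouse above the saline median, and the groups did not overlap at all in 1 gene (0.00669%), which was not St6gal2. Of the 8 family genes, 1 (St6gal2) had an unadjusted p below 0.05, where 3.99% of all genes did, and 0 passed the study's cut-off of a fold change above 1.5 with such a p, where 0.421% of all genes did (0.114% higher and 0.308% lower). Nothing is read from these counts, because that contrast was used to choose the genes. In edgeR's quasi-likelihood test no gene of the 14949 had an adjusted p below 0.05 (smallest 0.387), 596 had an unadjusted p below 0.05, and DESeq2 gave 2 genes at an adjusted p below 0.05.

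**Figure D2:**
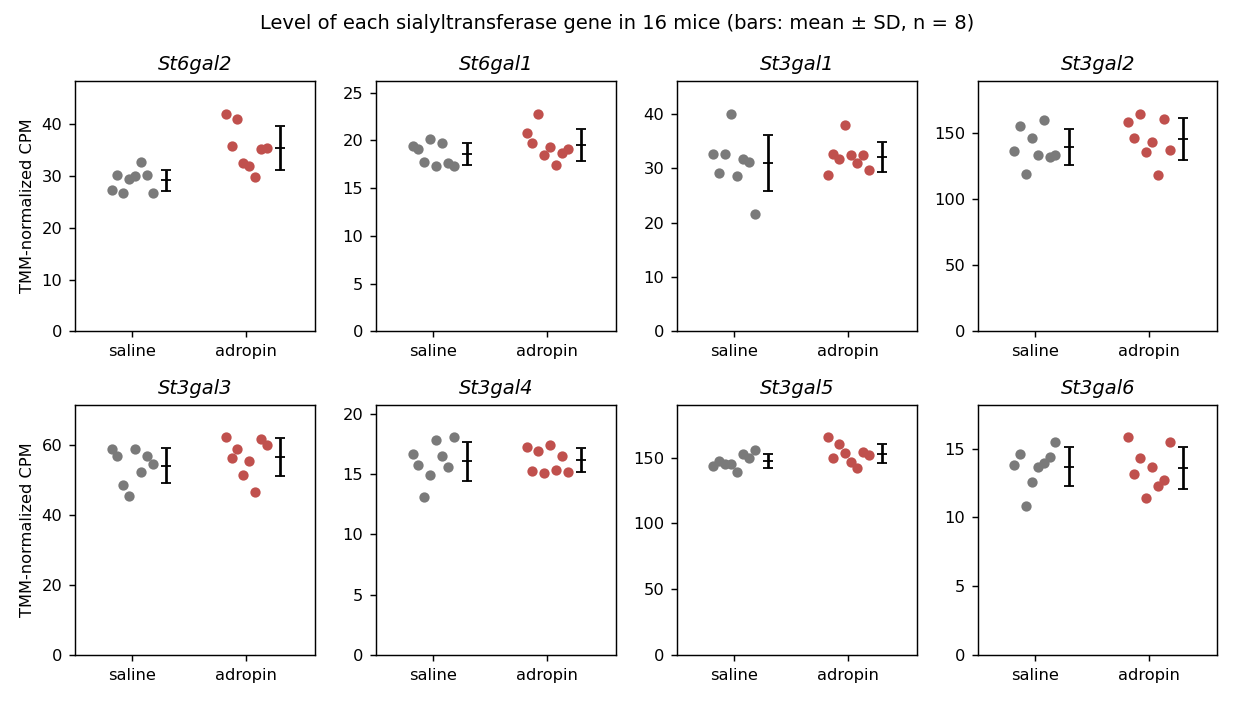
Each point is the TMM CPM of a gene in 1 mouse, saline-treated in grey and adropin-treated in red, with bars for the mean and SD (n = 8 per group). St6gal2 runs from 26.7 to 32.7 CPM with saline and from 29.8 to 42.1 CPM with adropin, and the groups lie over each other for the other 7 genes.

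The other 7 genes differed little between the groups, with log2 fold changes from -0.01 to 0.07. Over all genes tested the median log2 fold change was -0.0019 and the median absolute value was 0.07. The median over the 8 family genes was 0.06, and 7 of the 8 were above 0. Over the alternatives run, from 4 to 8 of the 8 were above 0, with 4 when the excitatory neuron score described further on was a covariate, 5 with the first principal component and 6 with library size only.

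St6gal1, the broadly expressed enzyme of the carbon 6 linkage, ran from 17.3 through 18.4 to 20.1 CPM with saline and from 17.5 through 19.2 to 22.8 CPM with adropin. The highest value belonged to adropin-treated mouse 2_4 and the groups otherwise covered much the same range. Its log2 fold change was 0.07 (SE 0.0599).

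St3gal1 ran from 21.5 through 31.4 to 40.1 CPM with saline and from 28.8 through 32.1 to 38.1 CPM with adropin (log2 fold change 0.05, SE 0.0923). The adropin range lay inside the saline range, whose ends were mice 8_3 and 6_1. St3gal1 had the largest biological coefficient of variation of the family in the fitted model over both groups, at 13.3%, against 7.46% for St3gal5 and 10.6% for St6gal2. Its SD as a share of the mean was 16.7% with saline but 8.69% with adropin. Within the adropin-treated mice that share was larger for St6gal2 (12.0%), St3gal6 (11.3%), St3gal2 (10.7%) and St3gal3 (9.51%).

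St3gal2 ran from 119 through 135 to 160 CPM with saline and from 118 through 144 to 164 CPM with adropin (log2 fold change 0.06, SE 0.0732). St3gal3 ran from 45.4 through 55.8 to 58.9 CPM with saline and from 46.7 through 57.6 to 62.2 CPM with adropin (log2 fold change 0.07, SE 0.0688). Both genes were lowest among the adropin-treated mice in mouse 4_3, which was also the lowest for St6gal1, St6gal2 and St3gal5.

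St3gal5 ran from 139 through 147 to 156 CPM with saline and from 142 through 153 to 165 CPM with adropin (log2 fold change 0.05, SE 0.0433). Only 1.76% of all genes tested had a smaller biological coefficient of variation than this GM3 synthase gene.

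St3gal4 ran from 13.1 through 16.1 to 18.0 CPM with saline and from 15.1 through 15.9 to 17.4 CPM with adropin (log2 fold change 0.01, SE 0.0659). St3gal6 ran from 10.9 through 13.9 to 15.5 CPM with saline and from 11.4 through 13.4 to 15.8 CPM with adropin (log2 fold change -0.01, SE 0.0806). For both genes the medians of the groups lay within 1 SD of each other. Exons of St3gal4 share 412 bases with 4930581F22Rik, those of St3gal6 share 1603 bases with Dcbld2 and those of St6gal1 share 200 bases with BC106179, all on the opposite strand, and it is not given in the sources used here whether counting used strand.

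The ratio of St6gal2 to each relative in the same mouse was compared next, since such a ratio does not depend on the scaling of the libraries. St6gal2 to St6gal1, as a ratio of CPM without length, ran from 1.40 to 1.73 with saline (mean 1.57 ± 0.118, SD, n = 8) and from 1.65 to 2.03 with adropin (mean 1.81 ± 0.115, SD, n = 8). In all 8 adropin-treated mice the ratio was above the saline median for St6gal1, St3gal2, St3gal3, St3gal5 and St3gal6, in 7 mice for St3gal4 and in 5 mice for St3gal1. All of these ratios share the St6gal2 values used to choose the family. They restate that difference, and nothing is read from these counts.

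Whether St6gal2 moved with its relatives from mouse to mouse was tested after each group's mean was subtracted, so that the difference between the groups did not enter. The 7 relations were tested over 16 mice by permutation with two-sided p-values, adjusted over the 7. St6gal2 was most closely related to St3gal2 at a Pearson r of 0.791 (permutation p = 0.00018, adjusted p = 0.00126) and a Spearman rho of 0.688 (permutation p = 0.00413, adjusted p = 0.0289). The value was 0.680 without the 2 mice farthest from the St3gal2 median, 0.751 within the saline-treated and 0.832 within the adropin-treated mice.

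St6gal2 was also related to St6gal1 (r = 0.709, permutation p = 0.00235, adjusted p = 0.00822, rho = 0.621, p = 0.0123, adjusted p = 0.0430). Without the 2 farthest mice r was 0.670, and it was 0.383 within the saline-treated and 0.868 within the adropin-treated mice.

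The relation to St3gal5 (r = 0.652, permutation p = 0.00674, adjusted p = 0.0157, rho = 0.553, p = 0.0296, adjusted p = 0.0518) rested on few mice. It fell to 0.369 without mice 1_3 and 4_3, the 2 farthest, and was 0.0717 within the saline-treated and 0.924 within the adropin-treated mice, a difference that was not tested. Without adropin-treated mouse 1_3 it was 0.523 (permutation, adjusted p = 0.106) and without 4_3 it was 0.541 (permutation, adjusted p = 0.0880).

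The other relations did not pass after adjustment. They were 0.528 for St3gal6 (permutation p = 0.0367, adjusted p = 0.0611; rho = 0.562, p = 0.0271, adjusted p = 0.0518), 0.513 for St3gal3 (permutation p = 0.0436, adjusted p = 0.0611; rho = 0.479, p = 0.0631, adjusted p = 0.0883), 0.277 for St3gal4 (permutation, adjusted p = 0.350) and -0.03 for St3gal1 (permutation, adjusted p = 0.912). The relation to St3gal3 passed without saline-treated mouse 2_3 (0.592), 6_1 (0.614) or 7_1 (0.580), and that to St3gal6 without saline-treated mouse 2_3 (0.545), 6_1 (0.546) or 8_3 (0.665).

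Such values were common in these libraries. Over the 14948 other genes, r with St6gal2 had a median of 0.0395 and quartiles of -0.373 and 0.483, and 2.52% of genes had an r at or above that of St3gal2, 8.52% at or above that of St6gal1 and 13.5% at or above that of St3gal5. The first principal component of the 16 libraries held 34.1% of the variance, and St6gal2 followed it with r = 0.764 over the 16 mice, as did St3gal2 (0.866) and St6gal1 (0.685). With this component as a covariate the log2 fold change of St6gal2 was 0.22 (SE 0.0518). The part of depth was not tested, and the r of St6gal2 with the log2 of the library total was 0.401.

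**Figure D3:**
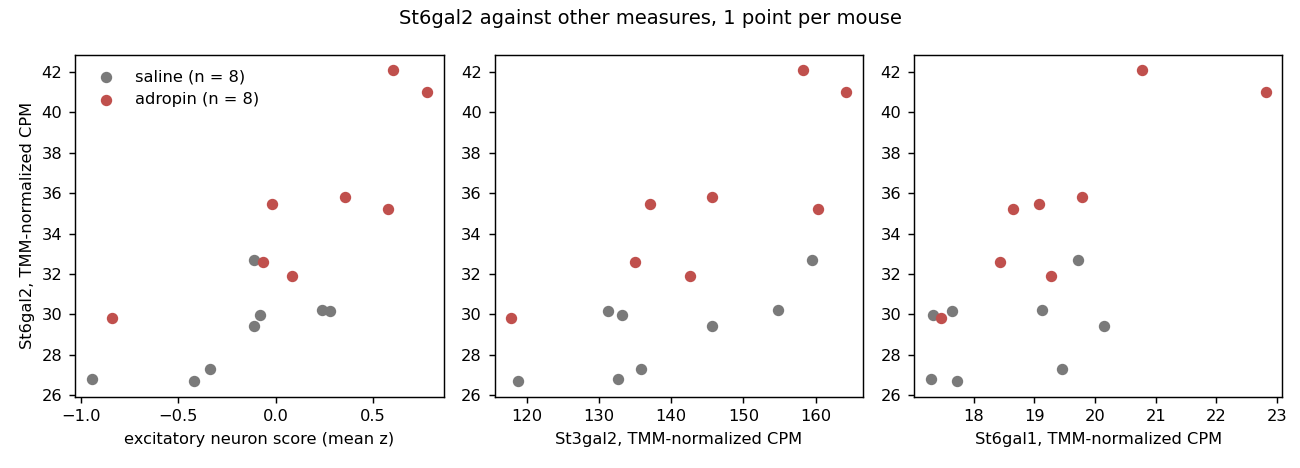
Each point is 1 mouse, with the TMM CPM of St6gal2 on the vertical axis against the excitatory neuron score (left, mean z), St3gal2 (middle) and St6gal1 (right, both TMM CPM), saline-treated in grey and adropin-treated in red. Group means are not subtracted in the plot, and St6gal2 is higher in mice with higher values of all 3 measures.

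St6gal2 was set beside 16 scores of marker lists for cell types, brain regions and immediate early genes. Each score was the mean z-scored level of its genes. Such relations across mice do not show which cells carry the transcript. In bulk tissue, fewer cells of a type and less RNA per cell cannot be told apart. Only the excitatory neuron score was related to St6gal2 after adjustment over the 16 lists (r = 0.803, permutation p = 0.00024, adjusted p = 0.00384, rho = 0.829, p = 0.00021, adjusted p = 0.00336, n = 16). It was 0.741 without the 2 farthest mice, 0.709 within the saline-treated mice and 0.853 within the adropin-treated mice. As a description without a test, the same score had an r of 0.751 with St3gal2, 0.612 with St6gal1 and 0.564 with St3gal3. Its r with the other relatives was lower, down to 0.122 for St3gal4.

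The excitatory neuron markers did not behave alike. St6gal2 followed Camk2a (r = 0.81) and Tbr1 (0.73), a transcription factor of deep-layer cortical neurons, across the 16 mice. It did not follow Slc17a7 (-0.19), the vesicular glutamate transporter of these neurons, or Neurod6 (-0.09), a neuronal transcription factor.

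The excitatory neuron score itself ran from -0.94 through a median of -0.11 to 0.28 with saline and from -0.84 through 0.22 to 0.78 with adropin. The summed level of its 5 markers ran from 4827 to 6430 CPM with saline and from 5282 to 6820 CPM with adropin, and none of the 5 was at 0 in any mouse. With the score as a covariate, an alternative added after the data were seen, the log2 fold change of St6gal2 was 0.19 (SE 0.0545), that of St6gal1 was 0.02, that of St3gal2 was -0.03 and that of St3gal3 was -0.0011. The part of the neuron markers in the St6gal2 difference was not tested further.

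The next highest relations were to the oligodendrocyte precursor score (r = 0.551, permutation, adjusted p = 0.124) and the mural cell score (0.535, permutation, adjusted p = 0.124). Within the first, r was 0.57 for Gpr17, 0.53 for Pdgfra, 0.48 for Cspg4 and -0.04 for Sox10, and within the second 0.67 for Kcnj8, 0.61 for Pdgfrb, 0.55 for Rgs5 and -0.39 for Acta2. The lowest were to the olfactory bulb score (-0.554, permutation, adjusted p = 0.124), the choroid plexus score (-0.401, adjusted p = 0.201) and the cerebellum score (-0.333, adjusted p = 0.301). The olfactory bulb score rested on 2 tested of 3 listed genes, whose r differed (-0.62 for Doc2g and -1.3e-06 for Cdhr1), and the cerebellum score on 2 tested of 6 listed genes (-0.53 for Cbln1 and -0.09 for Car8). For the 5 tested of 6 listed choroid plexus genes, r ran from -0.60 (Prlr) to -0.27 (Kl).

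The immediate early gene score, which reads recent neuronal activity, was -0.58 ± 0.728 with adropin and 0.58 ± 0.719 with saline (SD, n = 8 each). Its r with St6gal2 within the groups was 0.412 (permutation, adjusted p = 0.201), and its part in the St6gal2 difference was not tested. The B cell list, of a cell type known for St6gal1, had 0 of 4 markers tested, with a summed level of at most 1.64 CPM in any mouse.

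The genes whose levels were most like St6gal2 over the 16 mice, by Pearson r with group means subtracted, were Nptn (0.921), Lnpk (0.916), Cnot11 (0.911), Sbno1 (0.909) and Prdm2 (0.908). Nptn encodes neuroplastin, a synaptic adhesion molecule, and Lnpk a protein of endoplasmic reticulum junctions. The most opposite were Gm9844 (-0.88), Pcsk4 (-0.88) and Pxmp2 (-0.88). None of the 5 most similar genes had a log2 fold change over 0.11 between adropin and saline.

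Each relative had its own closest genes. They were Rab10 and Eif1ax for St6gal1 (r = 0.955 and 0.940), Rasal1 and Slc6a7 for St3gal1 (0.905 and 0.901), Pum2 and Rbm15b for St3gal2 (0.980 and 0.966), Ell2 and Adap1 for St3gal3 (0.928 and 0.923), Zfp24 and Zkscan14 for St3gal4 (0.873 and 0.866), Syncrip and Isca1 for St3gal5 (0.891 and 0.847), and Abcd2 and Parva for St3gal6 (0.941 and 0.935). Among the relatives, the r of St3gal1 with the rest of the family ran from -0.65 (St3gal6) to 0.28 (St6gal1) and was below 0 for 5 of 7 genes.

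The sialyltransferases need activated sialic acid, acceptor chains and partners that remove or read their product, so 73 other genes of these steps were followed, of which 60 were tested. At an unadjusted p below 0.05, 3 were higher and 1 was lower with adropin, where 1.86% and 2.13% of all genes were. The sum of 4 genes ran from 2 to 8 when 1 mouse was left out, with 2 without adropin-treated mouse 1_3, 2_4 or 3_3 or saline-treated mouse 2_3 and 8 without adropin-treated mouse 4_3. None of the 60 passed the cut-off of 1.5-fold or had an adjusted p below 0.05 in edgeR (smallest adjusted p = 0.874). Of the 60, 39 had a log2 fold change above 0, and the median was 0.037.

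**Figure D4:**
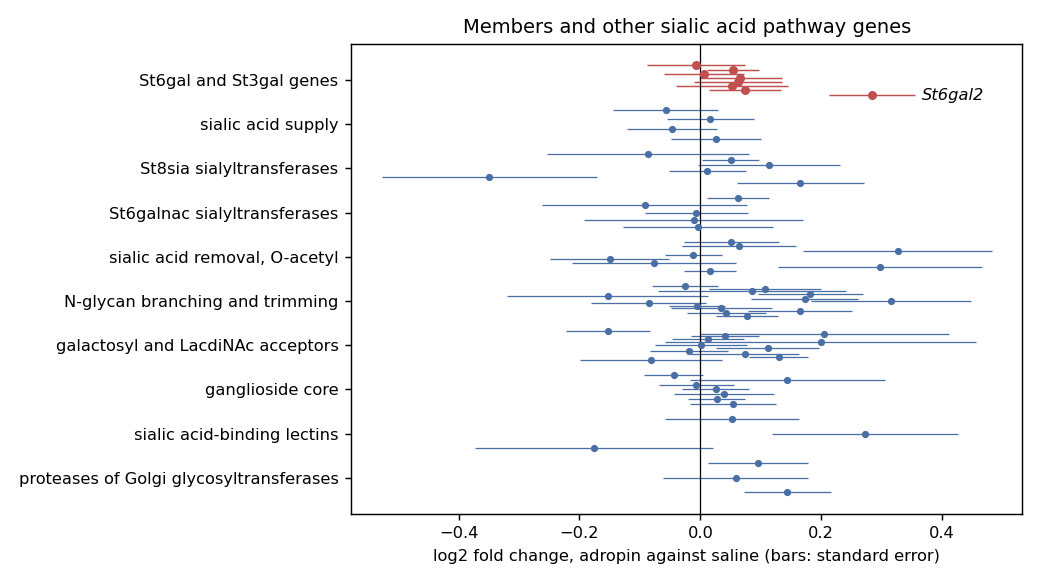
Points give the log2 fold change of adropin against saline with its SE for the 8 St6gal and St3gal genes (red) and 60 tested genes of the sialic acid pathway (blue), grouped by role. St6gal2, at 0.28, is the red point to the right, and the other 7 red points lie between -0.01 and 0.07.

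Among genes of N-glycan branching and trimming, which build the antennae that the St6gal enzymes cap, 2 of 13 passed the unadjusted threshold. Mgat5, which adds a branch to complex N-glycans, was at 110 ± 20.4 CPM with adropin and 88.7 ± 16.9 CPM with saline (log2 fold change 0.32, SE 0.132, adjusted p = 0.874, n = 8 each, edgeR). Man1a2, a Golgi mannosidase, had a log2 fold change of 0.18 (SE 0.0866), and Man2a2, the most abundant gene of the list, 0.11 (SE 0.0924). With the excitatory neuron score as a covariate, these log2 fold changes were 0.12 for Mgat5, 0.073 for Man1a2 and -0.016 for Man2a2, and with the first principal component 0.14, 0.10 and 0.0045.

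Of 11 tested genes that make galactosyl and LacdiNAc acceptors, 1 was higher and 1 lower at the unadjusted threshold. B4galt2, a galactosyltransferase of N-glycan antennae, was at 92.0 ± 5.73 CPM with adropin and 84.1 ± 4.39 CPM with saline (log2 fold change 0.13, SE 0.0488). C1galt1c1, the chaperone of the core 1 O-glycan synthase, was lower, at 11.9 ± 0.975 against 13.2 ± 1.22 CPM (log2 fold change -0.15, SE 0.0694), whereas C1galt1, the synthase, had 0.21 (SE 0.206). B4galt6, a lactosylceramide synthase and the most abundant gene of the list, had a log2 fold change of 0.0011 (SE 0.0755).

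None of the 4 tested genes of sialic acid supply passed the threshold, with log2 fold changes of 0.02 (SE 0.0725) for Cmas, which makes CMP-sialic acid, and -0.06 (SE 0.0865) for Slc35a1, its Golgi transporter. None of the 6 St8sia or 5 tested St6galnac sialyltransferases passed. St8sia2, a polysialyltransferase of developing neurons, was at 1.68 ± 0.542 CPM with adropin and 2.14 ± 0.416 with saline (log2 fold change -0.35, SE 0.178), and the abundant St8sia3 had 0.01 (SE 0.0635). St6galnac6 had 0.06 (SE 0.0510) and St6galnac5, which makes alpha-series gangliosides, -0.09 (SE 0.169).

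Sialic acid removal and O-acetylation (0 of 8 genes), the ganglioside core (0 of 7), lectins that bind sialic acid (0 of 3 tested of 12 listed) and proteases of Golgi enzymes (0 of 3) held no gene past the threshold. The named genes of these lists include Npl, a sialic acid lyase (log2 fold change 0.33, SE 0.156), Cd33, a microglial lectin (0.27, SE 0.154), and Bace1, a protease that also cleaves St6gal1 (0.14, SE 0.0723). With the excitatory neuron score as a covariate, Cd33 was at 0.066 and Bace1 at 0.048, and with the first principal component at 0.10 and 0.070. Mag, the myelin lectin that binds gangliosides made by St3gal enzymes, had -0.18 (SE 0.197), Ctsa, the protective protein of the lysosomal sialidase, -0.01 (SE 0.0471) and B4galnt1, the enzyme that commits gangliosides to the complex forms, 0.03 (SE 0.0473).

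Within the groups, St6gal2 moved with several of these genes over the 16 mice, as a description without a test. Its r was 0.814 with Cd33, 0.748 with Mgat5, 0.743 with Man1a2, 0.725 with Man2a2 and 0.695 with Bace1. The lowest of the named genes were Cmas (-0.51) and Ctsa (-0.46).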

How the data were processed

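RNA from the brains of 16 male C57BL/6J mice was sequenced as paired 150-base reads. The authors mapped them to mouse assembly GRCm38 with STAR, ran featureCounts on reads that had 1 placement and fell in 1 gene, and deposited the resulting raw counts. A second deposited table of CPM was not used. The members and lists were chosen with earlier results of these data known.

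Of 40757 entries, 276 repeats were dropped. TMM factors (edgeR 4.0.16, R 4.3.3) used every gene. The 14949 genes tested had more than 1 CPM in 7 or more mice and excluded 355 ribosomal RNA genes. The quasi-likelihood test of edgeR compared the groups, p-values were adjusted after Benjamini and Hochberg, and the procedure was tested on simulated data. Mouse-to-mouse relations used log2 TMM CPM (prior count 2), centred by group, with 100000 permutations (scipy 1.17.1). Exon lengths came from GENCODE M21 and promoters from RefSeq. A second St6gal2 entry, ENSMUSG00000098633, had 0 counts in every mouse.

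Named genes are the 8 members, pathway genes at an unadjusted p below 0.05 or with the highest level or largest fold change in their list, the 5 most and 3 least correlated with St6gal2, the 2 most correlated with each relative, and markers of the 3 highest and 3 lowest related lists. The results for 2 genes under this rule are not reported here. Alternatives were DESeq2 1.42.0, limma-voom (limma 3.58.1) with and without quality weights, other filters and scalings, label numbers as blocks, added covariates and leaving out each mouse. The meaning of the label numbers is not given in the sources used here.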

Additional observations from a re-analysis of the deposited data

Results flagged for a closer look

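Among 86 groups of 8 mice checked for a value far from the rest, 5 were found, where chance gives about 4.3 (1 in 20). St3gal1 was 38.1 CPM in adropin-treated mouse 3_3, with the next mouse of the group at 32.6 CPM. St8sia2 was 2.90 CPM in adropin-treated mouse 5_5, with the next at 1.86 CPM. The oligodendrocyte precursor score was -1.24 in adropin-treated mouse 4_3, with the next at -0.13. The cerebellum score was -0.87 in adropin-treated mouse 1_3, with the next at -0.25, and 3.34 in saline-treated mouse 8_3, with the next at 0.0146. The log2 fold change of St6gal2 was 0.32 without adropin-treated mouse 4_3, 0.24 without 1_3 and 0.27 without saline-treated mouse 8_3.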

How the results depend on the processing

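The log2 fold change of St6gal2 (0.28) stayed above 0 under all alternatives run, from 0.19 with the excitatory neuron score as a covariate to 0.32 when the first number of the label was the block. St6gal2 was chosen from this contrast, so nothing is read from the kept sign. The block fit drew the group difference only from mice whose first number occurred in both groups. The excitatory neuron score, like the first principal component, was chosen as a covariate after seeing the data. The label numbers used as replicate blocks were not known to mark pairs. The first number occurred in both groups for 3 values only. Over the 5 pairs of mice from different groups that shared it, deviations from the group mean had a median correlation of -0.01. Over 59 other pairs the median was -0.0022, and with the second number it was -0.05 over 17 pairs. These deviations leave out the group difference, and the other first numbers occurred in a single group. What mice with such a number share therefore cannot be told apart from the treatment.

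Genes past the cut-off and higher with adropin numbered 17, against 569 with no filter, 34 and 11 with the first and second label number as replicate block, and 7 and 11 with the excitatory score and the first principal component as covariates. Genes lower with adropin numbered 46, against 30 with limma-voom and 784 with no filter. Leaving out 1 mouse gave 10 to 47 higher genes and 35 to 65 lower genes. The higher genes numbered 10 without adropin-treated mouse 1_3, 28 without 3_3 and 43 without 4_3, and 47, 31 and 11 without saline-treated mice 5_3, 7_1 and 8_1. Pathway genes at an unadjusted p below 0.05 numbered 4, against 9 with quality weights, 0 and 2 with the first and second number as replicate block, and 7 with the first principal component. Leaving out 1 mouse gave 2 to 8, with 2 without adropin-treated mouse 1_3, 2_4 or 3_3 or saline-treated mouse 2_3, and 8 without adropin-treated mouse 4_3. Of these counts the cause was not tested.

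The sign of the log2 fold change turned for several genes, some of them not near 0 at first, such as C1galt1 (0.21), Mag (-0.18), Man2a2 (0.11) and St6galnac5 (-0.092). With library size only, Cmas was at -0.0021, St8sia3 at -0.011 and B4galt6 at -0.017, and with DESeq2 size factors B4galt6 was at -0.0022. With the first number as replicate block, Cmas was at -0.13, Slc35a1 at 0.044, St8sia3 at -0.057, B4galt6 at -0.13 and Mag at 0.090, and with the second, B4galt6 was at -0.028. With quality weights, St8sia3 was at -0.016. With the excitatory score, St8sia3 was at -0.050, Ctsa at 0.0098, Man2a2 at -0.016, C1galt1 at -0.059 and B4galnt1 at -0.021. With the first principal component, St8sia3 was at -0.036, Ctsa at 0.0098 and C1galt1 at -0.0060. Leaving out 1 mouse gave -0.021 to 0.058 for Cmas, -0.016 to 0.032 for St8sia3, -0.19 to 0.015 for St6galnac5, -0.034 to 0.0035 for Ctsa and -0.030 to 0.038 for B4galt6. Among the family, St3gal2 was at -0.034, St3gal3 at -0.0011 and St3gal4 at -0.0041 with the excitatory score, St3gal2 at -0.014 and St3gal4 at -0.023 with the first principal component, and St3gal4 at -0.016 with library size only. St3gal1 was at -0.0074 and St3gal6 at 0.036 with the first number as replicate block, and St3gal6 at 0.0088 with the second. Leaving out 1 mouse gave -0.0089 to 0.12 for St3gal1 (below 0 without saline-treated mouse 8_3), -0.030 to 0.032 for St3gal4 and -0.049 to 0.026 for St3gal6. With saline-treated mice alone, St3gal4 over St3gal1 was 0.29 without passing and St6gal2 over St6gal1 was 0.066 (no test is drawn from it), and with adropin-treated mice alone St3gal1 over St6gal2 was -0.034. The r of St6gal2 with St3gal1 was 0.0024 with library size only, 0.11 without centring, and -0.31 to 0.10 without 1 mouse. That with St3gal5 was 0.531 with library size only (permutation, adjusted p = 0.0868), and 0.523 to 0.829 without 1 mouse. Leaving out 1 mouse gave 2 to 5 relatives (5 without saline-treated mouse 2_3 or 6_1) and 1 to 2 marker scores (2 without adropin-treated mouse 1_3) with an adjusted p below 0.05. By Pearson r, the relations of St6gal2 with St3gal2, St6gal1 and the excitatory score passed under all alternatives run.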
